A study of Mus musculus with 2 samples.

Results

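The 6 genes Malat1, Neat1, Snhg11, Miat, Rmst and Pantr1, long noncoding RNAs known chiefly from the cell nucleus, were followed across the nuclei of fetal mouse brain. They were taken by symbol from the 55416 features of the deposited matrices, and all 6 were present. The genes were chosen from their measured UMIs in these libraries, so their levels and ratios are a description and carry no test. Single-nucleus RNA-seq of whole fetal brain was deposited for 2 genotypes, wildtype and Cav1 knockout (KO), each as 1 library. Cav1 encodes caveolin 1, a coat protein of the small membrane pits called caveolae, and the study asks about its role in how fetal brain metabolism is set. The labels give the age only as fetal, and name neither the strain, the knockout allele, the sex nor the number of fetuses behind a library. They are called the wildtype-labelled (WT-labelled) and the knockout-labelled (KO-labelled) library, and where a pair of values is given without a name, the WT-labelled one comes first. With 1 library per genotype, a difference between them cannot be told apart from a difference between 2 samples, and no p-value was computed. All intervals are 95% intervals that cover counting error only: exact Poisson for a level, exact conditional binomial for a ratio of levels, and exact (Clopper-Pearson) binomial for a share of nuclei.

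A long noncoding RNA is a transcript without a known protein product, and many of them stay in the nucleus where they are made. Malat1 lies in nuclear speckles, stores of splicing factors. Neat1 is the scaffold on which paraspeckles are built, bodies that hold RNA-binding proteins such as Nono and Sfpq. Miat, also called Gomafu, gathers in nuclear spots of neurons and binds splicing factors including Qk, Sf1 and Celf3. Snhg11 is a host gene of small nucleolar RNAs. Rmst is a partner of the stem cell factor Sox2 in neurogenesis and hosts microRNA genes, and Pantr1 lies beside Pou3f3, which encodes a POU transcription factor of the developing cortex.

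Barcodes were kept from 500 genes up and to 5% mitochondrial UMIs, which left 6686 of 9763 in the library labelled wildtype and 6680 of 10811 in the one labelled knockout. A UMI is a molecular tag that lets each captured RNA be counted once. The kept nuclei held 17205381 and 19878903 UMIs, with a median of 2133.5 and 2366 UMIs per nucleus. Levels are given in CPM, a gene's share of all UMIs in the nuclei summed, on a scale where 10000 CPM is 1% of the UMIs. Nuclei were clustered without the 6 genes and grouped from marker genes into progenitor nuclei (1325 WT-labelled and 1213 KO-labelled), neuron nuclei (4488 and 4239), vascular nuclei (70 and 95) and other nuclei (803 and 1133). Of the kept barcodes, 10 had the same sequence in both libraries. Cav1 was counted at 4.13 CPM (interval 3.22 to 5.21) in the WT-labelled and 4.02 CPM (3.19 to 5.01) in the KO-labelled library, so its level over all nuclei did not separate them. In vascular nuclei Cav1 had 13 UMIs in the WT-labelled library and 0 in the KO-labelled one, where the exact interval of a count of 0 reaches 11.3 CPM. The sequence that the knockout removed is not given in the sources used here, so a 3′ count may lie outside it.

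The makeup of each class differed between the libraries, which can bear on every ratio below that is taken over all nuclei or over a class. The progenitor class was led by dividing progenitor-like cluster 4 in the WT-labelled library (533 nuclei, 40.2% of the class) and by radial glia-like cluster 8 in the KO-labelled library (411 nuclei, 33.9%). The neuron class was led by cortical excitatory neuron-like cluster 2 in the WT-labelled library (831 nuclei, 18.5%) and by other excitatory neuron-like cluster 0 in the KO-labelled one (1107 nuclei, 26.1%). Radial glia markers summed to 4187 and 4439 CPM in progenitors against 1365 and 1331 CPM in neurons. Cluster names were rebuilt here from marker genes and are not the authors' annotation.

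The ends of the 6 genes are shown because the assay primes on runs of A and reads near the 3′ end of an RNA. Each line gives the last 50 bases of the annotated gene in the GRCm39 build, written 5′ to 3′ on the strand of the gene, with the polyadenylation signals AATAAA or ATTAAA in capitals.
Malat1: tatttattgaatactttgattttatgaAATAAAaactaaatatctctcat
Snhg11: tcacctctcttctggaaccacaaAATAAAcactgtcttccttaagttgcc
Miat: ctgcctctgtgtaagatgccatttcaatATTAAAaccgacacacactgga
Rmst: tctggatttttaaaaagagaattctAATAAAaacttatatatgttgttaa
Pantr1: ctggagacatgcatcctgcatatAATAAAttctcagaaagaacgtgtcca
Neat1: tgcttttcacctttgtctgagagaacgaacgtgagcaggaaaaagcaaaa
Of these, 5 hold one of the 2 signals and Neat1 holds neither. Among the longest transcripts of 32880 annotated long noncoding RNA genes, 57.3% hold AATAAA or ATTAAA in their last 50 bases, read on the transcript's own strand.

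Malat1 and Neat1 are known for an unusual 3′ end: the RNA is cut before a tRNA-like structure, and the end left behind is a run of A encoded in the genome that folds with stretches rich in U. The 90 bases that end in this run are given for both genes, with the run and the GCAAAA that follows in capitals.
Malat1: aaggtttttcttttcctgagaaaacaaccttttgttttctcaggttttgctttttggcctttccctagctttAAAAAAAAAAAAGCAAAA
Neat1: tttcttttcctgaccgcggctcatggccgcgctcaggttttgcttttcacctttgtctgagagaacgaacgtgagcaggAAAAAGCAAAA
The Malat1 stretch lies on chromosome 19 at 5846010 to 5846099, 293 bases before the annotated end of the gene, and the Neat1 stretch at 5874736 to 5874825 ends the gene. The run of A holds 12 bases in Malat1 and 5 in Neat1. A run of 10 or more A occurs anywhere in 10.7% of the longest long noncoding transcripts. Whether such a run served as a priming site in these libraries was not tested.

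**Figure D1:**
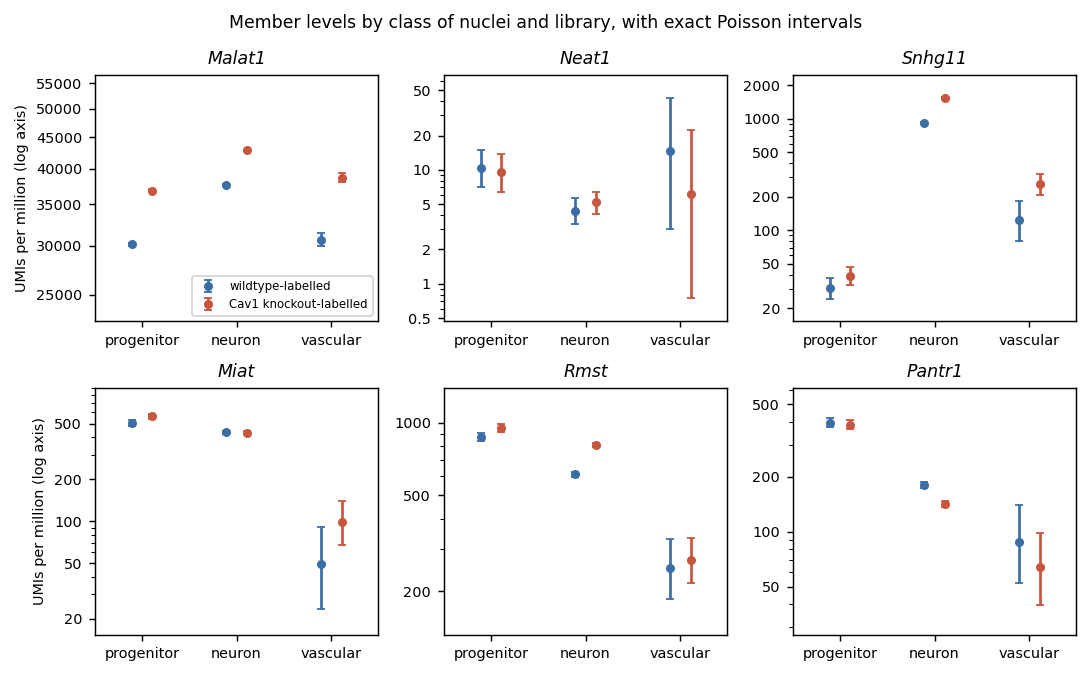
Level of each of the 6 long noncoding RNAs in progenitor, neuron and vascular nuclei of the WT-labelled and the KO-labelled library, in CPM on a log axis, with exact 95% Poisson intervals as bars. Malat1 sits between 30148 and 42841 CPM in every class, Snhg11 ranges from 30.3 to 1537 CPM, and Neat1 stays under 15 CPM.

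The word abundant applied to 5 of the 6 genes. Malat1 had more UMIs than any other gene in both libraries and in each of the 3 classes, and took 3.53% of all UMIs in the WT-labelled and 4.05% in the KO-labelled library. By UMIs over all kept nuclei of the WT-labelled library, Snhg11 was rank 116, Rmst 145, Miat 306 and Pantr1 779 among 31290 genes with a UMI. Neat1 was rank 12128 there and 12547 in the KO-labelled library, with 127 and 132 UMIs. Per kilobase of annotated exon, the WT-labelled levels were 4474 CPM for Malat1, 83.4 for Snhg11, 75.1 for Rmst, 39.9 for Miat, 24.6 for Pantr1 and 0.330 for Neat1. The order was the same in the KO-labelled library, where Malat1 stood at 5141 and Neat1 at 0.296 CPM per exonic kilobase. A 3′ assay does not count reads along the whole length, so a level per kilobase is a rough scale here.

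Malat1 (chromosome 19, 5845717 to 5853602, minus strand, a single exon block) was found in 6678 of 6686 WT-labelled and 6643 of 6680 KO-labelled nuclei. Its level in progenitor nuclei was 30148 CPM (29951 to 30346) in the WT-labelled and 36818 CPM (36602 to 37034) in the KO-labelled library. In neuron nuclei it was 37696 CPM (37590 to 37802) and 42841 CPM (42737 to 42945), and in vascular nuclei 30686 and 38674 CPM. Neurons thus held 1.25-fold the progenitor level in the WT-labelled library and 1.16-fold in the KO-labelled one, and the KO-labelled library was the higher in each class. Per nucleus, the median share of UMIs from Malat1 was 3.59% and 4.03% in neurons, against 2.56% and 3.03% in progenitors.

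Within these classes Malat1 varied between clusters more than between libraries. Choroid plexus-like nuclei, the epithelium that secretes cerebrospinal fluid, had the highest level at 53378 and 56161 CPM in the WT-labelled and KO-labelled library. Cajal-Retzius-like neurons, the early Reln-making cells of the cortical surface, followed at 49785 and 52144 CPM. Radial glia-like nuclei, the stem cells of the fetal brain, had 45778 and 50525 CPM, so the highest and lowest progenitor clusters lay apart: dividing progenitor-like cluster 13 had 22023 and 27209 CPM. The other dividing progenitor-like cluster, 4, had 25881 and 29154 CPM, and intermediate progenitor-like nuclei 26926 and 29539 CPM. Among progenitors the order was therefore radial glia-like above intermediate and dividing progenitor-like in both libraries. Among neuron-like clusters, cluster 7 had 43915 and 49310 CPM and cluster 9 had 25716 and 28464 CPM.

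The level of Malat1 also moved with the depth of a nucleus. In neurons of the WT-labelled library it stood at 32641 CPM in the 25% of nuclei with the fewest UMIs and at 38923 CPM in the 25% with the most, and in progenitors at 22032 and 33683 CPM. In the KO-labelled library the same depth groups gave 35152 and 44960 CPM in neurons and 25273 and 42715 CPM in progenitors. Unnamed cluster 1, with median depths of 742.5 and 707 UMIs and ribosomal protein genes at 10.3% and 10.0% of UMIs, had the lowest Malat1 level of all clusters, 6246 and 5824 CPM. Its 10 leading genes include haemoglobin genes and Pf4, and what these barcodes hold was not tested.

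**Figure D2:**
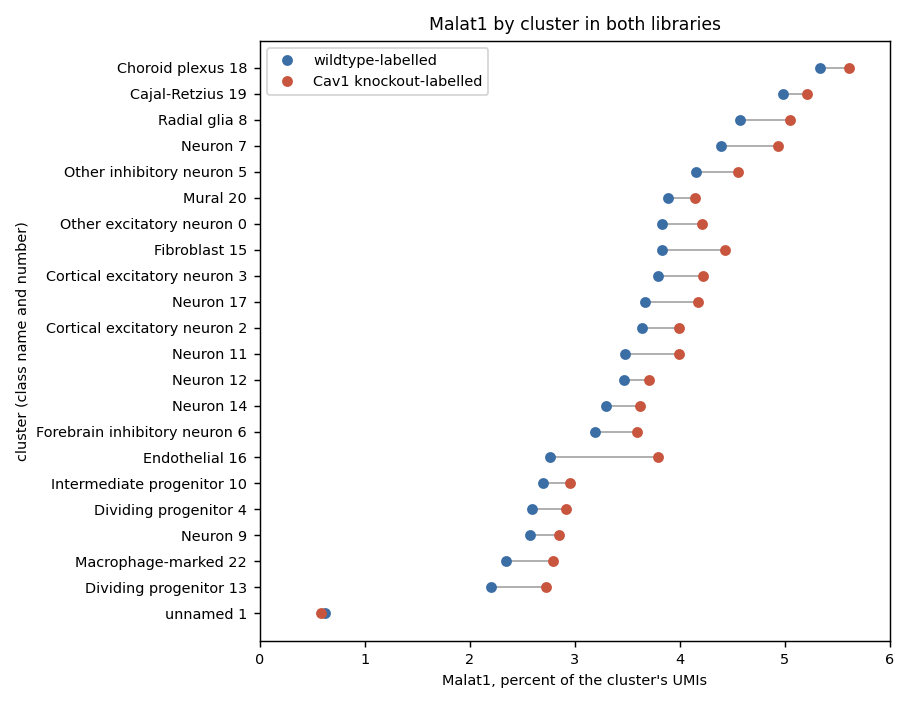
Share of UMIs from Malat1, in percent, in each of the 22 clusters with nuclei of both libraries, 1 point per library. Choroid plexus-like and Cajal-Retzius-like clusters lie highest and unnamed cluster 1 lowest, and the KO-labelled point lies above the WT-labelled one in all shown clusters but cluster 1.

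Across the 16 clusters with at least 50 nuclei in each library, the log2 ratio of KO-labelled to WT-labelled Malat1 level was above 0 in 15, with a median of 0.14. It ran from -0.10 in cluster 1 to 0.31 in dividing progenitor-like cluster 13, and none reached 1.5-fold. How many other genes lay above 0 in as many clusters was not counted. Endothelial-like nuclei, too few for that count with 42 and 61 nuclei, had 27619 and 37943 CPM, a log2 ratio of 0.46 (0.41 to 0.51). The genes whose cluster pattern was most like that of Malat1 in the WT-labelled library, of 10003 compared, were Fbxl17, an F-box subunit of ubiquitin ligases, Ddhd2, a lipase, and Rasa2, a Ras GTPase-activating protein. Their Pearson r over these 16 clusters was 0.96, 0.95 and 0.95, and 0.89, 0.93 and 0.89 in the KO-labelled library. The clusters share libraries and differ in depth, so these r are a description. Gm37376, annotated on the opposite strand within Malat1, had r of 0.93 and 0.98 with it and 132 and 172 CPM. Whether the counting used the strand is not given in the sources used here, so reads of the pair cannot be told apart.

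Neat1 (chromosome 19, 5874736 to 5897132, minus strand) lies 21.133 kilobases from Malat1 but was thinly counted. Over all nuclei it stood at 7.38 CPM (6.15 to 8.78) in the WT-labelled and 6.64 CPM (5.56 to 7.87) in the KO-labelled library. A Neat1 UMI was found in 98 of 6686 and 112 of 6680 nuclei, 1.47% and 1.68%. The 11 and 16 nuclei with at least 2 such UMIs held 31.5% and 27.3% of them. Most Neat1 UMIs were thus the only one in their nucleus.

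Progenitor nuclei had 31 and 29 Neat1 UMIs, 10.4 CPM (7.09 to 14.8) in the WT-labelled and 9.56 CPM (6.40 to 13.7) in the KO-labelled library. Neuron nuclei held 57 and 79 UMIs, or 4.40 CPM (3.33 to 5.70) and 5.18 CPM (4.10 to 6.45). The progenitor intervals lay above the neuron interval in the WT-labelled library and overlapped it slightly in the KO-labelled one. Intermediate progenitor-like nuclei had 11 Neat1 UMIs in the WT-labelled library, and all 11 came from 1 of 372 nuclei. The KO-labelled library had 0 UMIs in 272 such nuclei, so that difference rests on 1 nucleus. Without it, progenitor nuclei of the WT-labelled library had 20 Neat1 UMIs, 6.75 CPM (4.12 to 10.4), which overlaps the neuron interval, and the log2 ratio of neurons over progenitors was -0.62 (-1.37 to 0.20).

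Outside the macrophage-marked nuclei described next, the highest Neat1 level of a named cluster was in choroid plexus-like nuclei, with 9 UMIs and 74.1 CPM (33.9 to 141) in the WT-labelled and 15 UMIs and 109 CPM (60.8 to 179) in the KO-labelled library. Radial glia-like nuclei came next among clusters with over 10 UMIs in both libraries, at 18.3 and 16.2 CPM. A small set of nuclei that fell into the vascular clusters carried more macrophage than vascular marker UMIs and was set apart after this was seen. It held 14 WT-labelled nuclei with 276 macrophage and 2 vascular marker UMIs, and 9 KO-labelled nuclei with 100 and 2. Neat1 had 22 UMIs there in the WT-labelled library, 654 CPM (410 to 991), in 9 of the 14 nuclei. In the KO-labelled library it had 0 UMIs in 9 nuclei, with an interval that reaches 220 CPM, below the lower bound of the other. Over all nuclei with 5 or more macrophage marker UMIs, whatever their cluster, the gap was smaller. There Neat1 had 32 UMIs in 45 WT-labelled nuclei, 78.2 CPM (53.5 to 110), and 17 UMIs in 50 KO-labelled nuclei, 23.1 CPM (13.5 to 37.0), found in 13 and 10 nuclei. The remaining vascular nuclei had 3 and 2 Neat1 UMIs, from which no ratio can be read. With the macrophage-marked nuclei left in the vascular class the counts were 25 and 2 UMIs, a log2 ratio of -4.17, so the vascular ratio of Neat1 rested on them.

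The genes most like Neat1 over the 16 clusters in the WT-labelled library were Nedd9, an adhesion scaffold protein, Ftsj1, a tRNA methyltransferase, and Tsc22d1, a leucine zipper protein, with r of 0.77, 0.76 and 0.76. In the KO-labelled library r was 0.26, 0.38 and 0.19. The likeness of these genes was thus weak in the second library, and at these counts it is no finding.

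Miat (chromosome 5, 112361094 to 112377261, minus strand) is known to carry repeats of TACTAAC, the motif its protein partners bind. The motif occurs 6 times in the exons of its longest annotated transcript, 1 time in that of Neat1 and 0 times in those of the other 4 genes, read on the strand of the transcript. Of 135 long noncoding transcripts of at least 5000 bases, 1 (0.741%) held 6 or more, which is Miat itself. A stretch of 152 bases at 112365175 to 112365326 holds 3 of the 6 copies and is given with them in capitals.
Miat: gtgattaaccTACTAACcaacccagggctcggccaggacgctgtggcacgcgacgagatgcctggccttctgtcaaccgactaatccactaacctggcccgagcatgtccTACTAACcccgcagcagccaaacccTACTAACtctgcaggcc
A match of letters is a description and shows no binding here.

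Miat stood at 508 CPM (482 to 534) in progenitor nuclei of the WT-labelled and 562 CPM (536 to 589) in those of the KO-labelled library. In neuron nuclei it stood at 433 CPM (422 to 444) and 429 CPM (418 to 439), so both classes held it at levels within 1.31-fold of each other. Vascular nuclei held 10 and 32 UMIs, at 49.1 CPM (23.6 to 90.3) and 98.3 CPM (67.2 to 139), well below both. A Miat UMI was found in 60.5% and 64.5% of neurons, at median depths of 2354.5 and 2779 UMIs, and in 10.0% and 13.7% of vascular nuclei, at 2311.5 and 2254 UMIs. After thinning each nucleus to 1000 UMIs the shares were 34.6% and 33.7% in neurons and 0% and 2.33% in vascular nuclei. Miat was thus found far more often in neural than in vascular nuclei of like depth.

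By cluster, Miat was highest in dividing progenitor-like cluster 13 at 999 CPM (888 to 1120) and 813 CPM (724 to 910), followed by intermediate progenitor-like nuclei at 788 and 714 CPM. The other dividing progenitor-like cluster, 4, had only 198 and 211 CPM, and radial glia-like nuclei 574 and 694 CPM. The progenitor class therefore averages clusters that lie far apart, and the direction between progenitors and neurons changed with the clustering. Neurons were 0.23 log2 units lower than progenitors in the WT-labelled library (log2 ratio -0.23), but the ratio was 0.21 with clusters at resolution 0.5. In the KO-labelled library the ratio was -0.39, against 0.24 with clusters at resolution 2. The nuclei in the class changed with these settings. At resolution 0.5 it held only a dividing progenitor-like cluster. At resolution 2 it took in a radial glia-like cluster with a median of 718 UMIs and 10.3% ribosomal UMIs. That is near unnamed cluster 1 (719 UMIs and 10.1%), which lies outside the class at resolution 1. The part of these changes in the ratios was not tested, and no direction is read for Miat between these classes.

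The partners named for Miat lay on both sides of the same divide. Qk, the quaking RNA-binding protein of glia and progenitors, stood at log2 ratios of -1.65 and -1.78 in neurons over progenitors. The splicing factor Sf1 also lay on the progenitor side, at -0.58 and -0.82. Only Celf3, a splicing regulator of neurons, lay on the other side, at 1.61 and 1.44. The genes most like Miat in cluster pattern were Gm26953, with r of 0.97 and 0.94 in the WT-labelled and KO-labelled library, Tmem131, with 0.90 and 0.57, and Gm28529, with 0.89 and 0.81. Gm26953 is a long noncoding RNA annotated on the opposite strand and overlapping Miat, at 48.2 and 52.1 CPM. As for Malat1, reads of the overlapping pair cannot be told apart without strand.

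Snhg11 (chromosome 2, 158217558 to 158228071, plus strand) was the RNA with the widest range. It had 30.3 CPM (24.4 to 37.3) in progenitor nuclei of the WT-labelled and 39.2 CPM (32.5 to 46.9) in those of the KO-labelled library, from 90 and 119 UMIs. In neuron nuclei it had 925 CPM (908 to 942) and 1537 CPM (1518 to 1557). Neurons thus held 30.5-fold and 39.2-fold the progenitor level. Of genes with at least 100 UMIs over the 2 classes, 11.0% in the WT-labelled and 11.3% in the KO-labelled library were 2-fold or more higher in neurons, and Snhg11 was the only one of the 6 RNAs among them. When classes were set from marker UMIs per nucleus in place of clusters, the log2 ratio fell from 4.93 to 1.95 and from 5.29 to 1.65.

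The 2 small nucleolar RNA genes annotated inside Snhg11, Gm25187 and Gm25129, had at most 1 UMI in a library. Of neurons, 33.8% (32.4 to 35.2) and 47.0% (45.5 to 48.5) held a Snhg11 UMI, against 5.43% and 6.84% of progenitors at median depths of 2063 and 2275 UMIs in the latter. Thinned to 1000 UMIs per nucleus, the shares were 27.1% and 38.1% of neurons and 2.87% and 3.38% of progenitors, so the gap between the classes remained at equal depth. The sum of general neuron marker genes was also present in the progenitor class, at 4389 and 5068 CPM against 19408 and 19455 CPM in neurons, and its part in the progenitor level of Snhg11 was not tested.

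Neurons did not share Snhg11 evenly. Other excitatory neuron-like cluster 0, marked by the glutamate transporter gene Slc17a6 and the homeobox genes Barhl1, Lhx9 and Pou4f1, had 2612 CPM (2551 to 2674) and 3097 CPM (3044 to 3150). A Snhg11 UMI was found in 81.6% and 85.1% of its nuclei. The cortical excitatory neuron-like clusters had 29.4 and 30.2 CPM (cluster 2) and 34.2 and 38.1 CPM (cluster 3), as low as radial glia-like nuclei at 27.5 and 38.7 CPM. In cluster 3 a UMI was found in 5.07% and 7.94% of nuclei, at median depths of 2689 and 2965 UMIs. Cortical excitatory neuron-like nuclei therefore stood at about the progenitor level, and most neuronal Snhg11 UMIs lay in other clusters. Forebrain inhibitory neuron-like nuclei, the Dlx-expressing interneuron lineage, were also low at 111 and 143 CPM, while other inhibitory neuron-like nuclei with Gata3 and Sox14 had 970 and 1161 CPM.

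Cluster 0 held 57.1% of all Snhg11 UMIs in 12.0% of nuclei of the WT-labelled library, and 55.3% in 16.6% of nuclei of the KO-labelled one. Cluster 7, neuron-like nuclei with median depths of 5674 and 7187 UMIs, held a further 19.4% and 28.6% in 4.37% and 6.09% of nuclei. These clusters were larger in the KO-labelled library. The level of Snhg11 also moved with depth: it was 196 CPM in the shallowest 25% and 1281 CPM in the deepest 25% of WT-labelled neurons, and 473 and 2072 CPM in the KO-labelled ones.

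**Figure D3:**
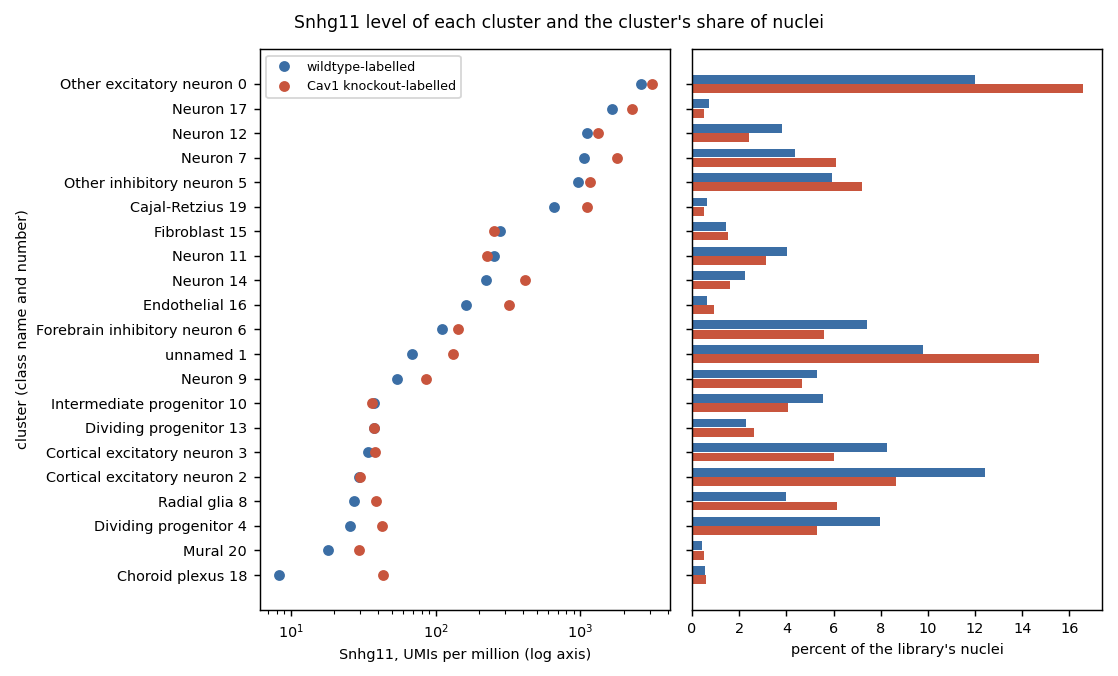
Snhg11 by cluster: its level in CPM on a log axis for each library, and the percent of nuclei of each library in the cluster. Cluster 0 reaches 2612 and 3097 CPM, the cortical clusters 2 and 3 stay under 40 CPM, and cluster 0 holds 12.0% of WT-labelled and 16.6% of KO-labelled nuclei.

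The genes most like Snhg11 were Car10, a carbonic anhydrase-related protein of synapses, Cntnap2, a neurexin-family adhesion protein, and Rcan2, a regulator of calcineurin. Their r over the 16 clusters was 0.95 each in the WT-labelled library and 0.90, 0.94 and 0.95 in the KO-labelled one. All were thus close to Snhg11 in both libraries.

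Rmst (chromosome 10, 91906899 to 92001132, minus strand) spans the microRNA genes Mir135a-2 and Mir1251. The mature microRNAs from RefSeq (GRCm38.p6) are given with their seeds, bases 2 to 8, in capitals, to show what the host transcript carries.
miR-135a-5p: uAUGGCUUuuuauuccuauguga
miR-1251-5p: aCUCUAGCugccaaaggcgcu
The seeds differ. This assay does not capture mature microRNAs, and the 2 microRNA genes had 0 or 1 UMI in a library, so nothing is said of their levels.

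Rmst stood at 875 CPM (841 to 909) in progenitor nuclei of the WT-labelled and 951 CPM (917 to 987) in those of the KO-labelled library. Neuron nuclei had 610 CPM (597 to 624) and 806 CPM (792 to 820). The log2 ratio of neurons over progenitors was -0.52 and -0.24, but with clusters at resolution 0.5 it was 0.34 and 0.79. At resolution 0.5 the progenitor class held only a dividing progenitor-like cluster (844 and 640 nuclei), and no cluster was named radial glia-like. The direction between the classes thus depended on how the clusters were divided and named. Sox2, the transcription factor that Rmst is known to bind, had ratios of -0.89 and -1.26 over the classes at resolution 1.

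Single clusters showed a clearer pattern. Radial glia-like nuclei had the highest level, 2071 CPM (1962 to 2184) and 1697 CPM (1621 to 1775), with a UMI in 50.9% and 50.6% of them. Other excitatory neuron-like cluster 0 had 1383 and 1442 CPM, and Cajal-Retzius-like neurons 1210 and 815 CPM. Cortical excitatory neuron-like clusters lay far below, at 156 and 182 CPM (cluster 2) and 75.9 and 67.1 CPM (cluster 3), where 8.33% and 7.2% of nuclei had a UMI. Rmst was thus high in radial glia-like nuclei and in some neuron clusters, and low in cortical excitatory neuron-like ones. Dividing progenitor-like clusters again lay apart, at 601 and 582 CPM in cluster 4 and 119 and 259 CPM in cluster 13. In vascular nuclei Rmst had 51 UMIs in 4 of 70 WT-labelled nuclei and 88 in 14 of 95 KO-labelled nuclei, and 3 nuclei held 49 of the 51.

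The genes most like Rmst were Megf11, a cell surface protein of neuron spacing, Cfap69, a protein of cilia, and Gabrg1, a GABA receptor subunit. Their r was 0.87, 0.83 and 0.80 in the WT-labelled and 0.77, 0.75 and 0.63 in the KO-labelled library.

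Pantr1 (chromosome 1, 42629754 to 42734584, minus strand) overlaps Pou3f3 on the opposite strand and Pantr2 on its own. It was the only one of the well counted RNAs to lie 2-fold or more lower in neurons in both libraries. Progenitor nuclei had 397 CPM (374 to 420) and 386 CPM (364 to 409), and neuron nuclei 180 CPM (173 to 188) and 142 CPM (136 to 148). The progenitor level was 2.20-fold that of neurons in the WT-labelled and 2.72-fold in the KO-labelled library, and 10.3% and 9.91% of all genes compared were likewise 2-fold or more lower in neurons. With classes set from marker UMIs per nucleus, the log2 ratio of neurons over progenitors was -0.94 and -1.16. The first of these falls short of 2-fold. A Pantr1 UMI was found in 48.8% and 50.5% of progenitors and in 32.9% and 31.5% of neurons, although neurons were the deeper nuclei.

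Intermediate progenitor-like nuclei, which give rise to cortical neurons, had the most Pantr1, 548 CPM (496 to 604) and 578 CPM (519 to 642). The dividing progenitor-like clusters had 401 and 425 CPM (cluster 4) and 449 and 412 CPM (cluster 13), and radial glia-like nuclei 194 and 239 CPM. Among neurons the cortical excitatory neuron-like clusters differed from each other: cluster 2 had 357 and 371 CPM and cluster 3, with Bcl11b and Fezf2 among its markers, had 101 and 86.9 CPM. Cluster 0, the richest in Snhg11, had 104 and 85.8 CPM. The patterns of Pantr1 and Snhg11 ran opposite, with r of -0.67 and -0.75 over the 16 clusters.

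The genes most like Pantr1 were Rcc2, a regulator of chromosome condensation, Pou3f3 and Ssbp1, a mitochondrial single-stranded DNA-binding protein. Their r was 0.94, 0.92 and 0.90 in the WT-labelled and 0.85, 0.86 and 0.64 in the KO-labelled library. Pou3f3 itself had 180 and 152 CPM in progenitors and 91.8 and 78.5 CPM in neurons, the same order as Pantr1. The genes overlap only from 42734085 to 42734584, at the 5′ end of each. Reads in that stretch cannot be told apart where the strand was not used, and their number was not tested. Pantr2 had r of 0.74 and 0.78 with Pantr1.

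**Figure D4:**
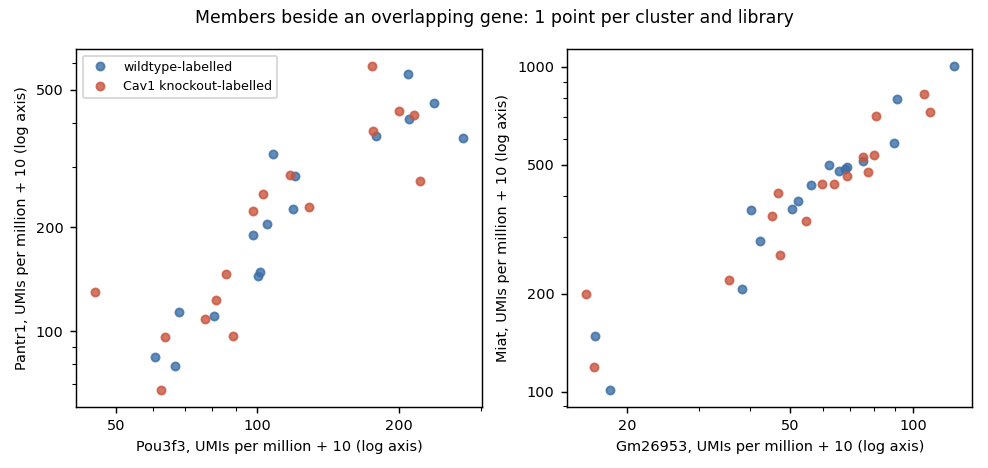
Levels of 2 overlapping gene pairs by cluster, 1 point per cluster and library, as CPM with 10 added, on log axes: Pantr1 against Pou3f3 and Miat against Gm26953. Points rise together in both panels, with r of 0.92 and 0.86 for the first pair and 0.97 and 0.94 for the second in the WT-labelled and KO-labelled library.

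Between the libraries, over all kept nuclei, Snhg11 stood apart from the other 5 RNAs. It had 711 CPM (698 to 724) in the WT-labelled and 1200 CPM (1185 to 1215) in the KO-labelled library, 1.69-fold and a log2 ratio of 0.76 (0.72 to 0.79). Rmst had 626 and 781 CPM, a log2 ratio of 0.32 (0.28 to 0.35), and Malat1 35279 and 40538 CPM, 0.20 (0.20 to 0.21). Miat had 421 and 424 CPM, 0.01 (-0.03 to 0.06). Pantr1 had 220 and 181 CPM, -0.28 (-0.34 to -0.21). Neat1, at -0.15 (-0.52 to 0.21), had an interval that spans 0. Of the 6 intervals 4 were clear of 0, against 26.4% of the 15528 genes with at least 100 UMIs. An interval narrows as UMIs rise, and those genes were not matched to the 6 for UMIs, so these shares are not compared. Snhg11 was the only one of the 6 at 1.5-fold or more, against 2.72% of those genes. In the KO-labelled library 2.12% were higher by that much and 0.605% lower. Over all of them the log2 ratio had a median of -0.01.

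The libraries also differed in the share of nuclei in each cluster. When the clusters present in both libraries were given the same shares of nuclei, the log2 ratio of Snhg11 was 0.33 (591 against 741 CPM), below 1.5-fold. That of Rmst was 0.00 (580 and 580 CPM), that of Pantr1 -0.12, and that of Malat1 0.15. With the same shares of the 4 classes only, the ratios stayed at 0.72 for Snhg11 and 0.31 for Rmst. In the weighting by clusters the ratio of Rmst was thus gone, while Malat1 kept most of its own. The weighting by clusters also counts each cluster by its nuclei and not its UMIs, so deep cluster 7 weighs less. It leaves out cluster 21, found in the KO-labelled library only. The part of each of these steps in the ratios was not tested. This weighting was chosen after the data were seen.

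**Figure D5:**
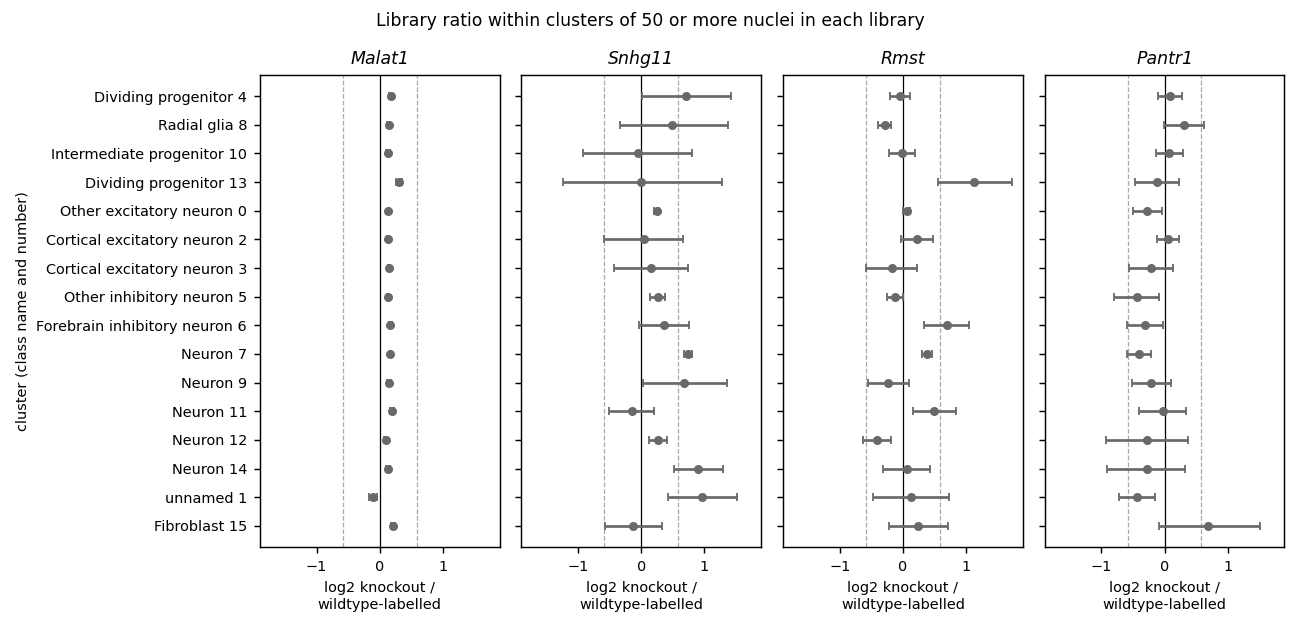
Log2 ratio of the KO-labelled over the WT-labelled level of Malat1, Snhg11, Rmst and Pantr1 in the 16 clusters with at least 50 nuclei in each library, with 95% conditional binomial intervals and dashed lines at 1.5-fold. Malat1 lies between -0.10 and 0.31, Snhg11 is above 0 in 13 of 16 clusters, and Rmst spreads from -0.41 to 1.12.

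Cluster by cluster, Snhg11 was higher in the KO-labelled library in 13 of 16 clusters, with an interval above 0 in 8, and reached 1.5-fold in 5. How many other genes reach such counts of clusters was not counted, for Snhg11 or for the RNAs below. These counts are thus a description only. The ratio was 0.25 (0.20 to 0.29) in cluster 0 and 0.26 in other inhibitory neuron-like cluster 5 and in neuron-like cluster 12. In cluster 7 it was 0.74 (0.67 to 0.81), where the KO-labelled nuclei were also the deeper, and in neuron-like cluster 14 it was 0.90 (0.51 to 1.29). Without cluster 7 the ratio over all nuclei was 0.69. In cortical clusters 2 and 3 it was 0.04 and 0.16, with intervals that span 0. The part of depth in the ratio of cluster 7 was not tested.

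Rmst ran both ways. It was higher in the KO-labelled library in 9 of 16 clusters and lower in 7, with intervals clear of 0 in 5 and 2 of them. It was higher in dividing progenitor-like cluster 13, 1.12 (0.55 to 1.73) from 35 and 97 UMIs, and in forebrain inhibitory neuron-like cluster 6, 0.69 (0.34 to 1.05). It was lower in radial glia-like cluster 8, -0.29 (-0.39 to -0.19), and in neuron-like cluster 12, -0.41 (-0.63 to -0.19). Miat was higher in 8 clusters and lower in 8, from 0.27 (0.09 to 0.46) in radial glia-like nuclei to -0.30 (-0.53 to -0.06) in dividing progenitor-like cluster 13 among those with an interval clear of 0. Pantr1 was lower in 11 of 16, with an interval below 0 in 5.

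In progenitor nuclei none of the 5 RNAs with at least 100 UMIs reached 1.5-fold between the libraries, where 3.16% of 9403 genes did (2.17% higher and 0.989% lower). The ratio was 0.29 for Malat1, 0.15 (0.05 to 0.25) for Miat and 0.12 (0.04 to 0.20) for Rmst. That of Miat was below 0 at a minimum of 200 or 1000 genes and at resolution 2 (-0.061, -0.055 and -0.12), and that of Rmst at resolution 0.5 and with at most 1% mitochondrial UMIs (-0.11 and -0.0057). Snhg11 had 0.37 (-0.04 to 0.78) in progenitors, and -0.015 after thinning, and Pantr1 had -0.04. In neuron nuclei Snhg11 reached 1.5-fold, 0.73 (0.70 to 0.77), as did 2.87% of 14267 genes (2.23% in the same direction, 0.638% in the other). Rmst had 0.40 (0.36 to 0.44) in neurons, Malat1 0.18, Miat -0.01 and Pantr1 -0.35 (-0.43 to -0.26).

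Vascular nuclei, few in number, gave the least firm values. Of the RNAs with at least 100 UMIs there, Malat1 had a ratio of 0.33 (0.29 to 0.38), Rmst 0.11 (-0.40 to 0.64) and Snhg11 1.09 (0.43 to 1.79), against 11.9% of 1041 genes past 1.5-fold (7.59% higher, 4.32% lower). Snhg11 rested on few nuclei: 23 of 25 UMIs in the WT-labelled library came from 3 nuclei, and 56 of 85 in the KO-labelled one. Its ratio there ran from 0.60, with classes from marker UMIs, to 3.87, with the 8% highest doublet scores removed, past 1.5-fold throughout. Under 4 alternatives Snhg11 itself had fewer than 100 UMIs, and no RNA with at least 100 UMIs was past 1.5-fold. General neuron markers stood at 2948 and 4662 CPM in vascular nuclei, and their part in the Snhg11 ratio was not tested. Endothelial markers stood at 8858 and 11625 CPM there, against 90.6 and 106 CPM in neurons.

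Between classes, vascular nuclei held less Miat, Rmst and Pantr1 than both neural classes in both libraries. Against neurons their log2 ratios were -3.14 and -2.12 for Miat, -1.28 and -1.58 for Rmst, and -1.03 and -1.14 for Pantr1. All lay past 2-fold, as did 24.0% and 23.3% of genes in that direction and 14.1% and 11.9% in the other. Against progenitors the log2 ratios were -3.37 and -2.52 for Miat, -1.80 and -1.82 for Rmst, and -2.17 and -2.58 for Pantr1. Snhg11 in vascular nuclei lay between the neural classes, at log2 ratios of 2.02 and 2.73 over progenitors and -2.91 and -2.56 over neurons. The ratios of Malat1 between any of the 3 classes ran only from -0.30 to 0.32.

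Genes known to work with these RNAs differed little between the libraries. Of 21 speckle proteins, 9 were higher and 12 lower in the KO-labelled library, none by 1.5-fold, with a median log2 ratio of -0.03. The splicing cofactor Acin1 had -0.14 and the splicing factor Srsf1 -0.11. Of 25 paraspeckle proteins, 2 were higher and 23 lower, none by 1.5-fold, with a median of -0.09 beside -0.01 over all genes. The share of all genes that were lower was not counted, but with a median below 0 lower was the more common direction. Without that share, the counts of higher and lower genes in these lists are not read as particular to them. Among the paraspeckle proteins the RNA-binding protein Rbm12 had -0.29 (21.7 and 17.8 CPM), and Sfpq, a core paraspeckle protein, -0.16 (332 and 298 CPM). Of 12 partners and genome neighbours, 3 were higher and 9 lower, with Pou3f3 at -0.26 and Celf3 at 0.19 the farthest in each direction. The lists were drawn up with results of these data known and are a description.

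Of 29 other long noncoding RNAs listed, 26 were in the files and 25 had at least 100 UMIs. Of these, 14 were higher and 11 lower in the KO-labelled library, none by 1.5-fold, with a median of 0.02. The imprinted neighbours Meg3, Rian and Mirg had 0.49, 0.36 and 0.36, and Lhx1os, the antisense partner of a homeobox gene, 0.48. Meg3 stood at 2481 and 3495 CPM. Between classes, the median ratio of neurons over progenitors was -0.35 and -0.28 for speckle proteins, -0.45 and -0.44 for paraspeckle proteins and -0.19 and -0.17 for all genes. Malat1, with ratios of 0.32 and 0.22, lay above the medians of these lists.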

How the data were processed

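Single-nucleus RNA-seq was deposited as raw UMI counts per gene and barcode for 1 wildtype and 1 Cav1 knockout (KO) library. Per the file headers the authors' counts came from Cell Ranger 6.1.1, while the submitters' processing notes name Cell Ranger 3.0.1, STAR and GRCm39. The annotation behind the counts, the use of intronic reads and the use of strand are not given in the sources used here. No barcode held under 500 UMIs, so barcodes had been filtered before deposit.

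Nuclei with at least 500 genes and at most 5% mitochondrial UMIs were kept. Scanpy 1.11.5 was used to scale to 10000 UMIs, choose 2000 variable genes (without the 6 RNAs, Cav1, mitochondrial genes and sex-linked marker genes), and cluster on 30 principal components and 15 neighbours (Leiden, leidenalg 0.10.2, resolution 1). The libraries were not corrected for each other. Names needed at least 3 markers at 2-fold or more, with thresholds set after the clusters were seen. Scrublet's automatic threshold marked 0 nuclei in either library, so the caller had not worked and all nuclei were kept; removing the 8% highest scores is an alternative.

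UMIs were summed per library, class and cluster. Log2 ratios of CPM use no pseudocount. Intervals came from scipy 1.17.1. With 1 library per genotype no test was run, and 1.5-fold between libraries or 2-fold between classes, among genes with at least 100 UMIs, was used in its place. Genes like a member were the 3 with the highest Pearson r of log2(CPM + 10) in the WT-labelled library, over clusters with at least 50 nuclei in each library, among genes with at least 500 UMIs. From each gene list, up to 4 genes with the largest absolute ratio could be named, and others named were chosen after their values were seen. Gene positions and sequences are from GENCODE M39 on GRCm39, to which 98.8% of features were matched by identifier. The scripts were tested on simulated counts. The members and gene lists were chosen with earlier results of these data known.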

Additional observations from a re-analysis of the deposited data

Results flagged for a closer look

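Several ratios between the libraries went opposite ways in different clusters, each with a counting interval clear of 0, and the differences between clusters were not tested. The log2 ratio of the KO-labelled over the WT-labelled level of Malat1 was 0.31 in dividing progenitor-like cluster 13 and -0.10 in unnamed cluster 1. That of Miat was 0.27 in radial glia-like cluster 8 and -0.30 in cluster 13. That of Rmst was 1.12 in cluster 13 and -0.41 in neuron-like cluster 12. Among the 16 clusters with at least 50 nuclei in each library, cluster 13 is thus the one where Malat1 and Rmst had their highest ratio and Miat its lowest.

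The barcodes under 500 genes, left out of every comparison, also carried the 6 RNAs. In the WT-labelled and the KO-labelled library, Malat1 stood there at 6547 and 5213 CPM, Neat1 at 4.21 and 1.76 CPM, Snhg11 at 72.2 and 123 CPM, Miat at 71.0 and 66.1 CPM, and Rmst at 67.4 and 63.0 CPM. Each of these levels was below that of the kept nuclei of the same library. Pantr1 went the other way, at 274 and 282 CPM against 220 and 181 CPM in kept nuclei. Ribosomal protein genes took 9.75% and 10.5% of UMIs in the barcodes under 500 genes, near the 10.3% and 10.0% of unnamed cluster 1. That cluster, with Malat1 at 6246 and 5824 CPM, made up 9.81% and 14.7% of the kept nuclei.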

How the results depend on the processing

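No paired analysis was possible because each genotype has 1 library. Directions of Snhg11, Malat1 and Pantr1 over all nuclei held under every alternative run, with log2 ratios of 0.33 to 0.77, 0.15 to 0.22 and -0.28 to -0.12. The count of RNAs past 1.5-fold over all nuclei went from 1 to 0 with the same cluster shares. In progenitors it went from 0 to 1 at resolution 2 and with classes from marker UMIs. In vascular nuclei it went from 1 to 0 at a minimum of 200 genes, with the 8% highest doublet scores removed, at no more than 1% mitochondrial UMIs and after thinning to 1000 UMIs, and to 2 at resolution 0.5. Genes past 1.5-fold went from 423 to 237 after thinning, and to 1957 with a minimum of 20 UMIs.

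The ratio between libraries changed sign in progenitors for Miat (-0.061 at a minimum of 200 genes, -0.055 at 1000 genes, -0.12 at resolution 2) and for Rmst (-0.11 at resolution 0.5, -0.0057 at no more than 1% mitochondrial UMIs). Neurons over progenitors changed sign for Miat in the WT-labelled library (0.11 at a minimum of 200 genes, 0.21 at resolution 0.5, 0.094 at resolution 2) and in the KO-labelled one (0.18 at 200 genes, 0.0049 at 1000 genes, 0.17 and 0.24 at resolutions 0.5 and 2). It did so for Rmst in the WT-labelled library (0.094 at 200 genes, 0.34 at resolution 0.5, 0.071 with marker UMIs) and in the KO-labelled one (0.25 at 200 genes, 0.79 and 0.10 at resolutions 0.5 and 2, 0.32 with marker UMIs). The nuclei classed as progenitor also changed with these settings, from 1325 and 1213 to 844 and 640 at resolution 0.5 and to 1815 and 1902 at resolution 2. The causes were not tested. Of the remaining values for single RNAs, 286 moved by less than their counting interval and 93 by more. Where the interval spans 0, 23 values of 10 ratios also changed sign, such as Snhg11 in progenitors (-0.015 after thinning, against 0.37) and Neat1 in progenitors (0.47 after thinning and 0.35 without the progenitor nucleus of most Neat1 UMIs, against -0.13). The alternatives with the same cluster shares, without cluster 1, 7 or 21, without that nucleus, and with macrophage-marked nuclei kept, were added after the data were seen. Thinning left out 846 and 1111 nuclei. Depth limits what can be read for Neat1, with 127 and 132 UMIs, and for vascular nuclei.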
